A study of Mus musculus with 2 samples.

Results

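The subject is the transcripts with BROAD names and exactly 2 exons in a pooled list of RNAs from mouse embryonic stem cells. They were chosen by name and structure: the name starts with BROAD, and 2 exons remain after blocks separated by gaps under 30 bp are joined. The rule found 5175 transcripts, 67.2% of the 7697 BROAD transcripts and 4.70% of the 110003 transcripts in the list. They carry 5069 distinct introns, an intron being distinct by chromosome, strand, start and end. The sources used here do not say what BROAD stands for.

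The cells were V6.5, a line of pluripotent stem cells from mouse embryos, cultured over fibroblasts that had been irradiated. The libraries were 1 of polyadenylated RNA and 1 of total RNA depleted of ribosomal RNA, and no treatment or genetic change is named. The list gives a position on the mm9 genome, a strand, exon blocks and a score for each transcript and names no library, so nothing could be compared between polyadenylated and ribosomal-depleted RNA. It holds no read counts, and the depth behind a transcript is unknown. Intervals below are Wilson 95% intervals over features of 1 list, and they cover counting error only and no variation between cultures.

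A spliced RNA is made by cutting out the intron between a 5′ splice site and a 3′ splice site and joining the exons on either side. Many long noncoding RNAs have few exons, and an RNA with a single intron is defined by 1 pair of splice sites. The direction of a spliced transcript can be read from the sequence at those sites. An intron placed at the same bases in transcripts listed under different names is a stricter form of recurrence than overlap of the transcripts.

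Most of the transcripts could be given no gene name. The list has no gene names and the annotation used, GENCODE release M21, is on another genome build (GRCm38), so names were taken only for introns shared with a listed transcript of at least 3 exons whose run of intron, exon and intron lengths belongs to a single annotated gene. This named 486 of the 5175 transcripts (9.39%), with 476 distinct introns in 340 genes. When the same matching was run with the strands of the annotation exchanged, as a background for chance matches, it named 5 of the 5069 introns. A name needs a longer transcript that holds the intron, so named members are by construction mostly those whose intron also occurs under another prefix.

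The sequences across the joined exons can be shown only for members that were given a gene name. They are read from GENCODE M21 transcripts at the matching annotated intron, 5′ to 3′, and capitals mark the exon downstream of the removed intron. The first set shows 30 nt of each exon of the annotated transcript, for well-known noncoding genes and for genes with many 2-exon BROAD transcripts. The Evx1os and Dnah12 records have 5′ exons of 25 nt, so the first letters of these sequences lie outside the deposited record.
Pvt1: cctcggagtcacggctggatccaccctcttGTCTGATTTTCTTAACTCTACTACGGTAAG
Dleu2: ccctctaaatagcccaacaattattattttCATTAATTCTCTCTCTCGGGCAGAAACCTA
Firre: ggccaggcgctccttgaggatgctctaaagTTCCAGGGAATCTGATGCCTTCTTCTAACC
Nespas: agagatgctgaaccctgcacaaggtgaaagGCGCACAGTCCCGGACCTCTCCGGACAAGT
Evx1os: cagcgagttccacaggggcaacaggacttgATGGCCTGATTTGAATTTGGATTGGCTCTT
Miat: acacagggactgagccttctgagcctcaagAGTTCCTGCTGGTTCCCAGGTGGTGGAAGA
Sptbn5: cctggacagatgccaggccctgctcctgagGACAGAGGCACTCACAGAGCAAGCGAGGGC
Gm11457: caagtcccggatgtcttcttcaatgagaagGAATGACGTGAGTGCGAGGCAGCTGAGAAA
Dnah12: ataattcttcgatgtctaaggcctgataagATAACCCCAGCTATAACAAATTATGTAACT

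In the Pvt1, Dleu2 and Evx1os sequences the removed introns were 68946 bp (plus strand, mm9 chr15:61869757-61938702), 31718 bp (minus strand, chr14:62222644-62254361) and 473 bp (minus strand, chr6:52262825-52263297). The upstream exon ended in AG at 276 of the 451 member introns that could be placed in the annotation (61.2%, 56.6 to 65.6%) and at 57.3% (56.5 to 58.1%) of 14612 other placed pool introns. The downstream exon began with G at 223 of them (49.4%, 44.9 to 54.0%) and at 45.8% (45.0 to 46.6%) of the others. AG before and G after the join are letters often found at exon ends in mammals, and these shares are given as a description without a test.

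The second set shows whole members. In each the 2 exons sum to exactly 75 nt, a length that 1069 members share, and the printed sequence has the length of the whole record. They are the 6 genes with the longest introns among named members of 75 nt whose exons lie within annotated exons.
Pantr1: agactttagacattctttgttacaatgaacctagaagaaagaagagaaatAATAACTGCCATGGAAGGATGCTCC
Gm12446: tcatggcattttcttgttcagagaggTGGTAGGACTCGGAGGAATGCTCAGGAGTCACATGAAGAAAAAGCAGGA
Cfap54: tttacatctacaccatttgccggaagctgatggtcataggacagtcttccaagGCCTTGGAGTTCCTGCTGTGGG
Gm10636: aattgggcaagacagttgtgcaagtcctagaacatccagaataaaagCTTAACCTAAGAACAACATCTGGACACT
E130006D01Rik: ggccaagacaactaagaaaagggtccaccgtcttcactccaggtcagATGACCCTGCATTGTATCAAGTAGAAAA
Gm6639: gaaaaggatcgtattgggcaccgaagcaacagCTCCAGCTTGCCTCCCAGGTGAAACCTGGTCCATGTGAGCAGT

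The division between the exons differed from member to member. The Pantr1 member had a 5′ exon of 50 nt and a 3′ exon of 25 nt around an intron of 18384 bp (minus strand, mm9 chr1:42705302-42723685), and the Gm12446 member had 26 nt and 49 nt around 13516 bp. Cfap54 encodes a cilia and flagella associated protein, and its member had 53 nt and 22 nt at intron 5 of 67 in the annotated transcript.

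The exons were short. The summed exon length had a median of 210 nt (quartiles 97 and 416 nt, range 24 to 8884 nt), below the medians of 2-exon transcripts with WHITEHEAD names (359 nt), U names (602 nt) and FT names (1270.5 nt) and of BROAD transcripts with 3 or more exons (1077 nt). The lengths are described without a test. The 5′ exon had a median of 86 nt (quartiles 43 and 165 nt) and the 3′ exon 95 nt (quartiles 41 and 211 nt). An exon over 1000 nt was present in 353 members, and an exon under 20 nt in 45.

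Of the 5175 members, 1069 (20.7%, 19.6 to 21.8%) summed to exactly 75 nt, none summed to 74 nt and 13 summed to 76 nt, and only 9 were shorter than 75 nt. The next most frequent sum occurred 25 times. Among the other classes a sum of 75 nt occurred in 2 of 2522 BROAD transcripts with 3 or more exons, 1 of 1504 WHITEHEAD, 1 of 8662 U and 0 of 2264 FT 2-exon transcripts, a count of 0 whose Wilson interval reaches 0.169%. In WHITEHEAD names the most frequent sum was 80 nt, with 15 transcripts. The pattern was noticed in the data and is given as a count.

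**Figure D1:**
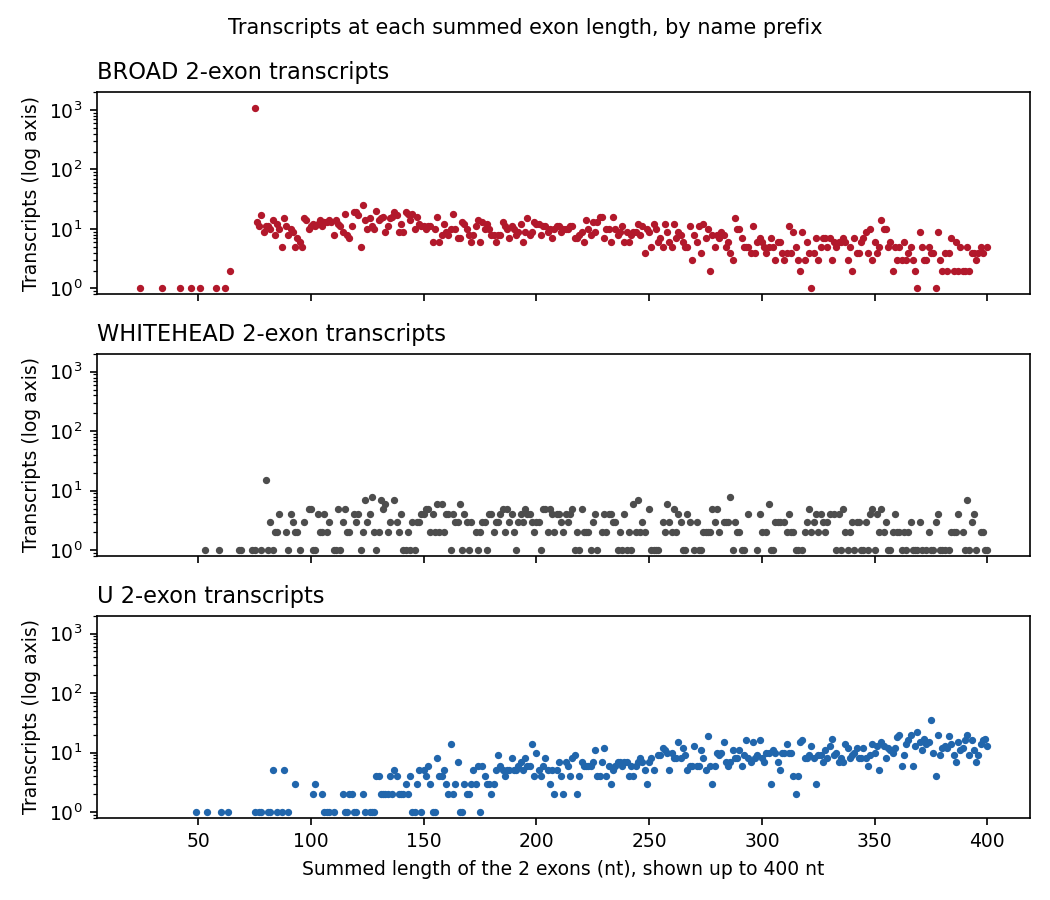
Number of 2-exon transcripts (log axis) at each summed exon length in nt, up to 400 nt, for BROAD, WHITEHEAD and U names, each point being 1 length. BROAD names have 1069 transcripts at 75 nt and at most 25 at any other length, while WHITEHEAD and U names have 1 each at 75 nt.

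The members of 75 nt had low scores. The score is a whole number deposited without a unit. It was 2 for 871 of the 1069 members of 75 nt (81.5%), 1 for 93, 4 for 99 and over 4 for 4, with a highest value of 8. Among the 4106 other members it was 2 for 48.9% and over 4 for 1267. The shorter of the 2 exons had a median of 30 nt and a minimum of 9 nt in the 75 nt members. Their introns had a median length of 1580 bp (quartiles 558 and 4663 bp) against 1326 bp (428.25 and 3942.5 bp) in the others, and 49.9% were on the plus strand against 51.8%.

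Exons of placed members usually ended inside the annotated exon. Of 459 member transcripts at an annotated intron, the 5′ exon was shorter than the annotated exon in 322 (70.2%), equal in 3 and longer in 134, and the 3′ exon was shorter in 331 (72.1%), equal in 1 and longer in 127. Where the annotated exon was itself internal, the 5′ exon was shorter in 267 of 350 (76.3%) and the 3′ exon in 232 of 313 (74.1%). Of the 451 placed introns, 204 (45.2%) were internal to the annotated transcript with the most exons, 106 (23.5%) were its first intron and 141 (31.3%) its last. The placed introns are those shared with longer pool transcripts, so these counts do not describe the members without a name.

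The 3′ exon was slightly more often the longer one. Taking for each distinct intron the transcript with the longest exons and leaving out ties, the 3′ exon was longer for 2677 of 5052 introns (53.0%, 51.6 to 54.4%, two-sided exact binomial test against 50%, p = 2.28e-05, adjusted p = 5.31e-05 over 7 tests). Without the members of 75 nt, a check added after the data were seen, the share was 55.3%. Median 3′ and 5′ exons, 95 and 86 nt in members, lay further apart in the other 2-exon classes, described without a test. They were 188.5 and 113 nt for WHITEHEAD, 356 and 177 nt for U and 829 and 205.5 nt for FT names.

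Intron lengths ran from 52 to 478400 bp, with a median of 1387 bp (quartiles 449 and 4135 bp). The median was close to that of the introns of BROAD transcripts with 3 or more exons (1355 bp), and it lay between those of U (679 bp), WHITEHEAD (1111 bp) and FT (1998.5 bp) 2-exon transcripts. Of the 5069 introns, 242 were under 100 bp, 578 were at least 10000 bp and 31 were at least 100000 bp. Introns under 1000 bp made up 41.4% of the member introns absent from U 2-exon transcripts (2017 of 4873, 40.0 to 42.8%) and 55.9% of the U 2-exon introns absent from members (4709 of 8421, 54.9 to 57.0%). The difference was -14.5 percentage points (-16.3 to -12.8, two-sided Fisher exact p = 9.27e-59, adjusted p = 3.24e-58). Below 100 bp the shares were 4.77% of all member introns and 16.7% of all U 2-exon introns.

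The shortest intron, 52 bp on chromosome 15 (plus strand, mm9 76794194 to 76794245), belonged to a member of 75 nt with a score of 2 and was listed under no other prefix. The next in length were 53 bp and 54 bp on chromosome 1, 55 bp on chromosome 12 and 56 bp on chromosome 6. Of these 5 introns, the one on chromosome 12 (70224013 to 70224067, score 78) was also present under U names.

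Most of the 5 longest introns lay at 1 place. Of the 5 longest, 4 lay on the minus strand of chromosome 13 between mm9 65583876 and 66420964, with lengths of 478400, 468011, 413914 and 362949 bp, and the other was 365022 bp on chromosome 1 (13061798 to 13426819, plus strand). The chromosome 13 introns belong to a stretch of overlapping minus-strand transcripts (65412054 to 66443536) with 157 pool transcripts, of which 34 were members. These 34 members, the most in any such stretch, had 31 distinct introns with a median of 10682 bp, 8 of them at least 100000 bp. All members together also had 31 introns of at least 100000 bp, so most introns of that length lay elsewhere. None of the distinct introns of this stretch recurred under another prefix, although 9 shared a splice site with an intron of another prefix. Scores there ran from 1 to 12 with a median of 2.

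**Figure D2:**
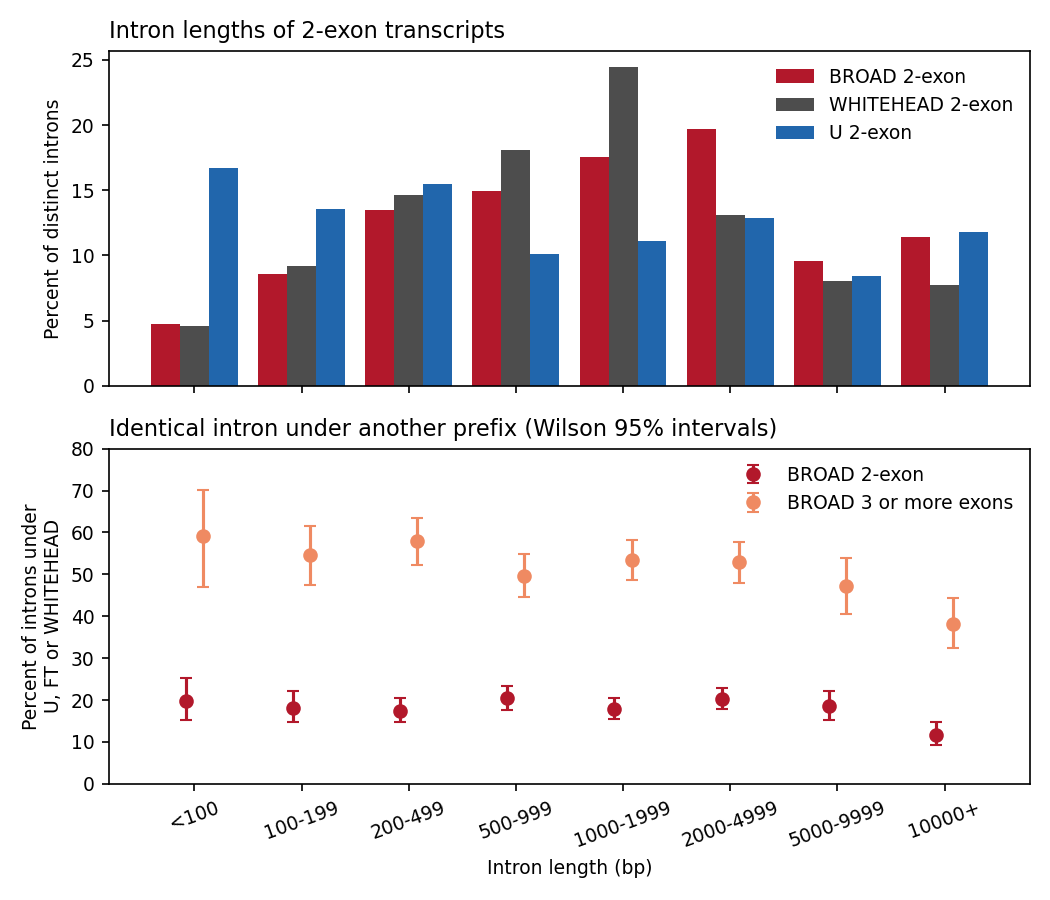
Upper panel: percent of distinct introns of BROAD, WHITEHEAD and U 2-exon transcripts in each class of intron length (bp). Lower panel: percent of introns found at the same bases under U, FT or WHITEHEAD names, with Wilson 95% intervals, for BROAD transcripts with 2 exons and with 3 or more. Member introns recur at 11.8% to 20.4% in every length class, below the 38.2% to 59.1% of the longer BROAD transcripts.

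Fewer than 1 in 5 member introns were present under another prefix. Of the 5069 distinct introns, 918 (18.1%, 17.1 to 19.2%) occurred at identical bases and on the same strand under U, FT or WHITEHEAD names. For all introns of the list outside the members, the share found under more than 1 prefix was 24.8% (8667 of 34993). Among other 2-exon classes, U introns were found under any other prefix at 20.3% (1753 of 8617, 19.5 to 21.2%). WHITEHEAD introns were so found at 31.8% (434 of 1365, 29.4 to 34.3%). The other prefixes differ from class to class, and these shares were not tested. The same positions on the other strand were present for 3 of the 5069 introns (0.0592%, 0.0201 to 0.174%).

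Recurrence was most frequent under U, the prefix with the most introns. U names held 686 of the member introns, which is 13.5% of the member introns and 2.19% of the 31329 introns under U. WHITEHEAD names held 335 (6.61%, and 13.4% of the 2492 introns under WHITEHEAD), and FT names held 284 (5.60%, and 2.87% of 9884). Of the 918 recurring introns, 582 were under 1 other prefix, 285 under 2 and 51 under all 3. The most frequent pattern was U alone (360 introns), followed by U with FT (196) and WHITEHEAD alone (195). The transcripts that carried a recurring intron under another prefix had 3 or more exons only for 522 introns (56.9%), 2 exons only for 313 (34.1%) and both kinds for 83.

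Introns of longer BROAD transcripts recurred more often. Leaving out the 195 introns held by both, 842 of 4874 introns of 2-exon transcripts recurred (17.3%, 16.2 to 18.4%), against 1043 of 1993 introns of BROAD transcripts with 3 or more exons (52.3%, 50.1 to 54.5%). The difference was -35.1 percentage points (-37.5 to -32.6, two-sided Fisher exact p = 2.03e-181, adjusted p = 1.42e-180). In each of the length classes of the plot of recurrence by intron length, which keeps the shared introns in both groups, the intervals of the groups did not overlap. Introns of 1 longer transcript are not independent of each other, so the p-value is too small.

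Against WHITEHEAD names no difference was detected once the introns held by both classes were left out. Counting only U and FT as partners and leaving out introns held by both classes, 624 of 4828 member introns recurred (12.9%) and 132 of 1124 introns of WHITEHEAD 2-exon transcripts (11.7%, 9.99 to 13.8%). The difference was 1.18 percentage points (-1.03 to 3.19, two-sided Fisher exact p = 0.297, adjusted p = 0.330), an interval that includes 0 and does not show that the classes are alike. With the shared introns kept, the order was the other way, described without a test. U names held 13.5% of member introns and 15.8% of the 1365 WHITEHEAD 2-exon introns, and FT names held 5.60% and 7.55%.

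No difference in recurrence was detected between introns on either side of 1000 bp. It was 18.9% for introns under 1000 bp (401 of 2119) and 17.5% for longer ones (517 of 2950), a difference of 1.40 percentage points (-0.745 to 3.58, two-sided Fisher exact p = 0.209, adjusted p = 0.292). The lowest share was in introns of at least 10000 bp, 68 of 578 (11.8%, 9.39 to 14.6%), and its interval lay below those of all the shorter length classes in the plot, a drop that the threshold at 1000 bp does not show and that was not tested. Medians of recurring and other introns were 1307 bp and 1400 bp. Exons were longer in members with a recurring intron, with a median sum of 299.5 nt against 198 nt, described without a test.

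The most frequent finding was no overlap with any other prefix. For 2485 introns (49.0%, 47.6 to 50.4%) no U, FT or WHITEHEAD transcript overlapped the member on either strand, and for a further 274 (5.41%) one did only on the other strand. Another 536 (10.6%) shared a splice site without the whole intron: the 5′ splice site alone in 202, the 3′ splice site alone in 268 and both, in different introns, in 66. Exons overlapped on the same strand without a shared splice site in 492 (9.71%), and only the span overlapped in 364 (7.18%). Introns that shared both ends in different introns had a median length of 5199.5 bp, and those with only span overlap 5341 bp, against 1120 bp where nothing overlapped. A longer intron gives a member a longer span, so the classes by overlap are not independent of intron length.

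**Figure D3:**
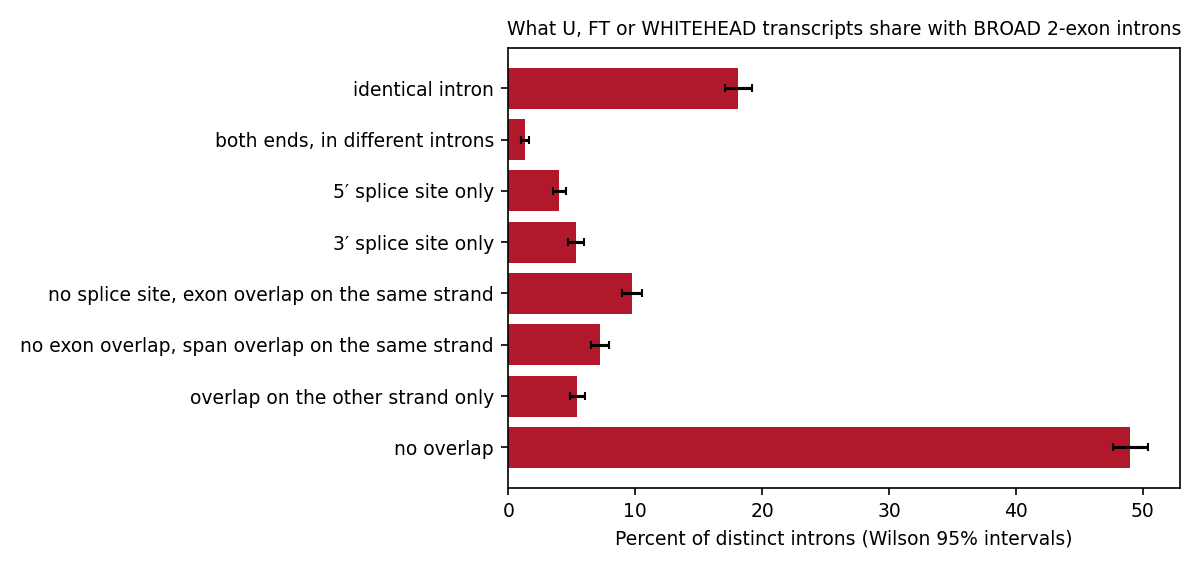
Percent of the 5069 distinct introns of 2-exon BROAD transcripts (bars, Wilson 95% intervals) by the closest relation to transcripts with U, FT or WHITEHEAD names, each intron counted once at the first relation from the top that holds. An identical intron was found for 18.1% and no overlap for 49.0%.

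Members rarely repeated each other. Of the 5069 introns, 88 were carried by more than 1 member, at most 4. A 5′ splice site was shared with another member intron by 440, a 3′ splice site by 422, and either by 805 (15.9%). The 5175 members lay in 4167 loci, where transcripts on the same strand with overlapping spans make up a locus, and 3557 of these loci held 1 member. A member was the only transcript of its locus in 2329 cases (45.0%), and 2757 members (53.3%) lay in loci with BROAD names alone.

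The 3 introns with 4 member transcripts could be given no gene name. Introns of 290 bp on chromosome 4 (minus strand, 149888994 to 149889283), 272 bp on chromosome 15 (plus strand, 76454602 to 76454873) and 168 bp on chromosome 7 (plus strand, 50075003 to 50075170) had 4 member transcripts each and overlapped no transcript of another prefix. The other introns chosen for their number of members, 100725 bp on chromosome 4 and 10180 bp on chromosome 11, had 3 each and recurred under no other prefix.

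Scores were mostly 2 and mostly even. The score of a member had a median of 2 (quartiles 2 and 4) and a maximum of 1961. It was exactly 2 for 2879 members (55.6%), 4 for 654 (12.6%) and 1 for 322 (6.22%). Even scores made up 87.0% (86.1 to 87.9%) of all members and 82.2% of the 1974 members with a score over 2, against 62.9% of BROAD transcripts with 3 or more exons and 42.6% (40.1 to 45.1%) of WHITEHEAD 2-exon transcripts. BROAD transcripts with 3 or more exons had a median score of 35, and 2 of the 2522 had a score of 2.

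Recurrence differed at a score threshold above 2, and no difference was detected at the planned threshold. With the threshold at the member median of 2, 867 of 4750 introns with a highest score of at least 2 recurred (18.3%) and 51 of 319 with a score of 1 (16.0%), a difference of 2.27 percentage points (-2.29 to 6.05, two-sided Fisher exact p = 0.330, adjusted p = 0.330). That threshold sets aside only the score of 1. In a comparison added after the data were seen, 462 of 1911 introns with a highest score over 2 recurred (24.2%, 22.3 to 26.1%), against 456 of 3158 with a score of 1 or 2 (14.4%, 13.3 to 15.7%). Fisher's exact test, two-sided, gave p = 6.86e-18 for this difference (2.74e-17 adjusted over 4 added tests). Recurrence did not keep rising with the score. It was 25.2% at a score of 4, 27.7% at 6 to 9, 23.6% at 20 to 99 and 13.8% (8.99 to 20.5%) among the 138 members with a score of at least 100.

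**Figure D4:**
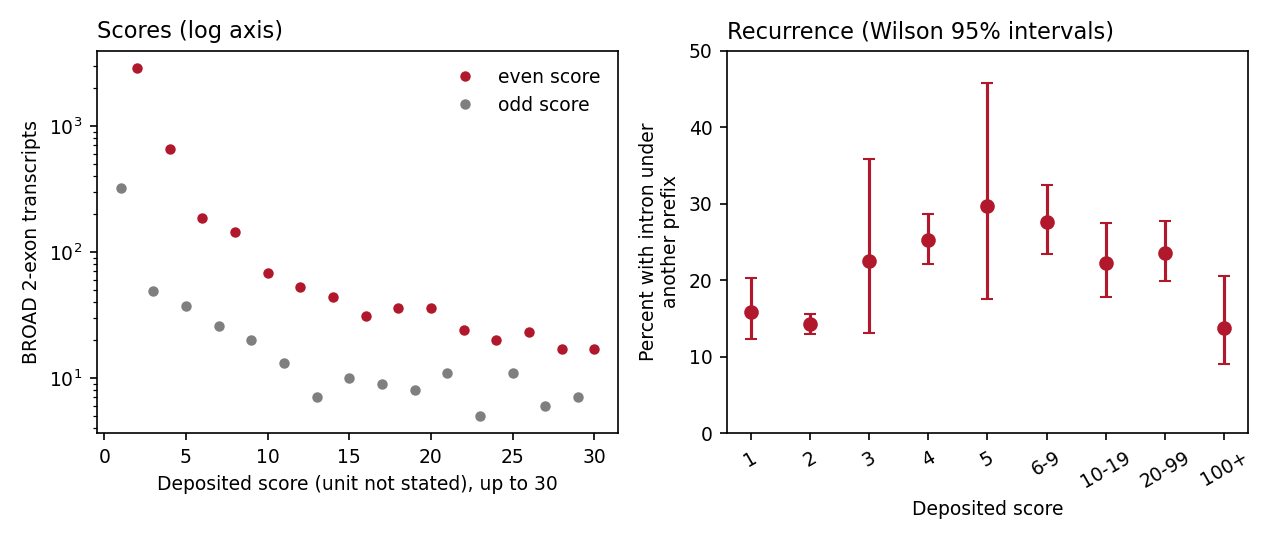
Left: number of 2-exon BROAD transcripts (log axis) at each deposited score up to 30, with even and odd scores in different colours. Right: percent of transcripts whose intron is present under another prefix, by score, with Wilson 95% intervals. The 2879 transcripts at a score of 2 recur at 14.2%, and the 654 at a score of 4 at 25.2%.

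Members of 75 nt recurred less often than the rest, and their scores were also lower. Of their 1069 introns 142 recurred (13.3%, 11.4 to 15.5%), against 776 of 4000 other introns (19.4%, 18.2 to 20.7%). Fisher's exact test, two-sided, gave p = 2.55e-06 (5.09e-06 adjusted over the 4 added tests). Among introns with a score of 1 or 2 the shares were 13.1% and 15.0% (Fisher exact p = 0.153, adjusted p = 0.153), and among those with a score over 2 they were 15.2% (16 of 105) and 24.7% (446 of 1806, Fisher exact p = 0.0261, adjusted p = 0.0348).

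Of the 5 members with the highest scores, 3 had an intron under BROAD alone. The highest score, 1961, belonged to an intron of 706 bp on chromosome 2 (plus strand, 41843527 to 41844232) that was also present under U. The next were 1429 at 609 bp on chromosome 8 (110108150 to 110108758), 1314 at 104 bp on the X chromosome (20259124 to 20259227) and 1074 at 1035 bp on chromosome 5 (100395198 to 100396232), none of them under another prefix. The fifth, 1026 at 674 bp on chromosome 13 (98263679 to 98264352), was also present under WHITEHEAD. None of the 5 could be given a gene name.

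The plus strand held 2607 of 5069 introns (51.4%, 50.1 to 52.8%, two-sided exact binomial test against 50%, p = 0.0431, adjusted p = 0.0754). Without loci of over 50 transcripts the share was 51.7% (exact binomial test, adjusted p = 0.0271), which is past the threshold of 0.05. Settings added after the data were seen also moved it past the threshold. Member introns of 1 locus share a strand by definition, and the members lay in 4167 loci. The introns are therefore not independent, and the p-values for strand are too small. Median intron lengths were 1335 bp for plus-strand and 1437 bp for minus-strand members. All members lay on the autosomes and the X chromosome, from 384 on chromosome 2 to 134 on chromosome 19, with 186 on X and none on Y or on unplaced sequence.

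Of the 340 genes named, 93 were lincRNA, 70 antisense, 67 processed transcript and 8 bidirectional promoter RNA genes, 69 (20.3%, 16.4 to 24.9%) were protein-coding, and 32 were pseudogenes. In the whole list 320 of 3841 named genes were protein-coding (8.33%, 7.50 to 9.25%). The members are part of the list, and the shares are set side by side without a test. A gene counts for the members if any of its introns is a member intron, so genes with many introns have more chances. The number of introns per gene was not taken into account. A single member was found for 255 of the 340 genes. Of the 476 named introns, 459 occur under other prefixes and the other 17 only in longer BROAD transcripts, which follows from how names were given.

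The gene with the most members was Sptbn5, a gene of the beta spectrin family of membrane-skeleton proteins, which this annotation lists as a processed transcript. It had 12 members on chromosome 2 (minus strand, mm9 119870790 to 119893704) with 12 different introns of 100 to 2471 bp. The introns stand at places such as 9, 21, 30, 41 and 51 of the 52 introns of the annotated transcript. Scores ran from 1 to 5 with a median of 2, exon sums from 75 to 245 nt, and all 12 introns were present under U names and under no other prefix.

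Among protein-coding genes, Dnah12, an axonemal dynein heavy chain, had 8 members at introns 12, 14, 18, 62, 66, 68, 71 and 73 of 73, on chromosome 14 (plus strand, 27536190 to 27704665), with scores from 2 to 8. Their introns ran from 744 to 2800 bp, and 2 of the 8 had exons that sum to 75 nt. Dnah14, a related heavy chain, had 5 members on chromosome 1 (183568022 to 183693413), and each of the 5 had a score of 2 and exons that sum to 75 nt. Wdr66 had 3 members, and Crocc2, a relative of the ciliary rootlet gene Crocc, had 3.

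Other coding genes with several members were of mixed kinds. Rnf213, a very large ubiquitin ligase, had 6 with scores from 2 to 4. Hmcn2, a hemicentin of the extracellular matrix, had 6 with exon sums of 75 to 132 nt, 3 of them at 75 nt, and its shortest intron was 74 bp. Sycp2l, a relative of a synaptonemal complex protein, and Vwa3b had 5 each, and Efcab8 had 3. The introns of these genes were all present under U names except 1 of Sycp2l (508 bp), which was under WHITEHEAD and not U.

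Gm11457, annotated as an antisense RNA gene, had as many members as Dnah12. Its 8 members on chromosome 2 (minus strand, 164579610 to 164593262) had 4 different introns. Introns of 4927 bp and 4924 bp, which share a 5′ splice site and end 3 bp apart, each had 3 members with the same 5′ exon lengths of 69, 119 and 1344 nt. The score was 20 for each member of the first and 50 for each member of the second. The 4924 bp intron was also under U and WHITEHEAD names, and the 4927 bp intron under WHITEHEAD only. The other introns, of 5104 bp (score 12) and 112 bp (score 30), had 1 member each and share a 3′ splice site.

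Other genes chosen for their number of members were Gm6639 (4 members, of which 3 had 75 nt), Gm36595, Igf2os and Apol7d (3 each), and the pseudogenes Gm3365 and Gm19196 (3 each). Igf2os lies antisense to the growth factor gene Igf2, and its introns of 643, 718 and 4492 bp had scores of 2, 19 and 4. The Gm19196 members had scores of 24, 31 and 75, and the highest score of a Gm3365 member was 33.

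Well-known noncoding genes were present with a few members each. Of the 30 genes listed, 26 have enough exons to be matched, 14 were named anywhere in the list and 6 through a 2-exon BROAD member. Pvt1, which lies beside Myc, had 5 members on chromosome 15 (plus strand, 61863867 to 62083958) with introns of 74719, 68946, 38626, 4316 and 4300 bp and scores of 4, 18, 6, 28 and 56, and the introns of 74719 and 38626 bp were under BROAD alone. Dleu2, host of the miR-15a and miR-16-1 precursors, had 4 members with introns of 31718, 10359, 5162 and 3041 bp, all under U names. Firre, a nuclear RNA encoded on the X chromosome, had 3 members with introns of 3640, 3581 and 822 bp and scores of 8, 16 and 2, the last under BROAD alone.

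The other listed genes had 1 or 2 members each. Nespas, an imprinted antisense RNA of the Gnas locus, had 2 members with introns of 8672 and 1474 bp. Miat had 1 member of 75 nt at an intron of 2333 bp, and Evx1os, antisense to the homeobox gene Evx1, had 1 with exons of 25 and 59 nt. All 4 members of these genes had a score of 2 and an intron under FT and U names. Xist, Jpx, Airn, Neat1, Hotairm1, Fendrr, Six3os1 and Sox2ot were named elsewhere in the list and by no member.

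Markers of cell types could not be used to check the label. None of the 13 pluripotency genes that can be matched, such as Nanog and Pou5f1, and none of the 15 genes of fibroblast feeder cells, such as Col1a1, was named anywhere in the list. Of 9 matchable genes of B and T cells, 2 were named in the list, Ighm and Tcrg-C1. Tcrg-C1, a T cell receptor gamma constant gene, had 1 member (75 nt, score 2, intron at chromosome 13, 19306302 to 19307732), also present under U. The list has no level of expression, so its markers say nothing of how many cells of a type were present.

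Introns present under all 4 prefixes numbered 51, with a median of 1004 bp, and 26 of them could be named. The longest was the Pvt1 intron of 68946 bp. It was followed by 43785 bp in Tunar (score 10), known for a noncoding RNA of pluripotent cells and annotated here as coding, 22045 bp on chromosome 6 (134879279 to 134901323, score 68) without a name, 18576 bp in 1110002L01Rik (score 60) and 13807 bp in Gm10658 (score 37). Pomgnt1, an enzyme of O-mannosyl glycan synthesis, held 13577 bp (score 4), Nbdy, a gene of mRNA decapping, 12100 bp (score 166), and 5730480H06Rik 11367 bp (score 6). The last of the 10 longest, 10346 bp on X (score 371) and 10078 bp on chromosome 1 (score 67), had no name. Scores in this group of 10 ran from 4 to 371, and 9 of the 10 lay above the member upper quartile of 4.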

How the data were processed

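RNA of V6.5 mouse embryonic stem cells went into 2 strand-specific libraries, 1 of polyadenylated and 1 of ribosomal-depleted RNA, per the labels' protocols. The submitters' processing notes name TopHat and mm9, and the sources used here do not state how transcripts were assembled or combined. The authors deposited 1 list for the whole series in BED format with 12 columns. Its score column was deposited by the authors as whole numbers with no stated unit or scale, so tests used only its order within BROAD names. The list holds no depth.

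Blocks with gaps under 30 bp were joined. Introns were compared by chromosome, strand, start and end with Python 3.11.15. Differences between shares were tested by Fisher's exact test and single shares by the exact binomial test, both two-sided (scipy 1.17.1) and Benjamini-Hochberg adjusted over 7 tests, and 4 tests were added after the data were seen. An intron held by both classes was left out of their comparison. Intervals of differences combine the Wilson bounds. Genes were named by structure in GENCODE M21 (GRCm38), with no coordinate converted, and the procedures were tested on simulated data.

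The members, lists and tests were chosen with earlier results of these data known. Named items were the 5 longest and 5 shortest introns, the 5 introns with most members, the 5 highest scores, the 10 longest introns under all 4 prefixes, the 20 genes with most members and each known noncoding gene. Of these named items, 1 is not reported here. Coordinates are 1-based.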

Additional observations from a re-analysis of the deposited data

How the results depend on the processing

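The 8 results were recomputed under 7 planned settings (no joining of blocks, joining under 50 bp, intron ends within 5 bp, autosomes and X only, without loci of over 50 transcripts, transcripts counted in place of introns, introns of at least 70 bp) and under settings chosen after seeing the data. Of 72 values, 66 kept their direction and side of the threshold or, for the untested share of recurring introns, stayed within its interval. Neither joining setting nor the restriction to autosomes and X changed any value except that of short introns against U names. All members lay on the autosomes and X, and their shortest intron was 52 bp. Unchanged values under these settings say little about how stable a result is. The share of recurring introns was 17.8% to 18.5% under the planned settings, 19.4% without members of 75 nt and 24.2% for members with a score over 2. In the exact binomial test the plus-strand share passed the threshold at 51.7% without crowded loci (adjusted p = 0.0271), 51.85% without members of 75 nt (adjusted p = 0.0352) and 53.5% for a score over 2 (adjusted p = 0.00441). The difference in recurrence by score rose to 9.74 percentage points with the threshold moved above 2 (Fisher exact test, adjusted p = 1.6e-17). For these changes the cause was not tested. The difference from longer BROAD transcripts ranged from -43.9 to -28.9 percentage points over all settings, that in short introns from U names from -17.0 to -10.2, and the share with a longer 3′ exon from 52.9% to 55.3%. No paired analysis was possible because the list has no values per sample. A gene can be named only through a longer transcript that shares the intron, and most members have none.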

Other observations

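The numbers in BROAD names run from 1 to 67063, and 7697 of them (11.5%) are present, each once. Recurrence by chromosome was not tested. It was 26.9% of the 171 members on chromosome 14, 24.7% of 275 on chromosome 17 and 24.2% of 384 on chromosome 2, against 13.5% of 325 on chromosome 4. These are the highest shares and the lowest among 20 chromosomes, counted over transcripts. Chromosome 2 includes the 12 Sptbn5 and 8 Gm11457 members, all with recurring introns. The stretch with the second most members, 15 of 17 pool transcripts on chromosome 2 (minus strand, mm9 119867131 to 119911660), contains the Sptbn5 members, and 12 of its 15 introns recurred. A compact stretch on chromosome 4 (minus strand, 149888355 to 149889899) had 10 members among 11 pool transcripts, with 4 distinct introns and none under another prefix.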
